A study of Mus musculus with 74 samples.

Results

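Fgf21, the gene of a liver hormone, and Klb, Fgfr4 and Fgfr1, the genes of its receptor proteins in liver, were followed by gene symbol through the RNA-seq table and through every table of ChIP-seq tag counts. They were 4 of 14583 genes in the RNA-seq table. In 11 ChIP-seq tables they held 247 of 743949 rows, of which 61 were Fgf21 rows, 75 Klb rows, 41 Fgfr4 rows and 70 Fgfr1 rows. A row is a genomic interval with the number of sequenced tags (reads) in it per library, and the authors' annotation gave each row the name of a gene and its distance from that gene's start site (minus upstream, plus downstream).

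FGF21 is secreted by hepatocytes in fasting and in nutrient and protein stress, and it acts through an FGF receptor tyrosine kinase, chiefly FGFR1, only where the membrane coreceptor beta-klotho (Klb) is present. FGFR4 with beta-klotho is the main FGF receptor of hepatocytes, where it carries the intestinal FGF15 signal that restrains bile acid synthesis. Fgf21 is a classical target of the nuclear receptor PPARα, which binds DNA with RXR at DR1 elements, and GPS2, NCOR and SMRT are subunits of a corepressor complex that acts through histone deacetylase.

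All samples were livers of C57BL/6 mice aged 8-12 weeks on chow diet, male by the study's methods. The library names call the H3K27ac and H3K4me3 samples of the Gps2 line fed, and the other library names give no feeding state. LKO animals of the Gps2, Ncor and Smrt lines lacked the named gene in hepatocytes, where the albumin promoter drives Cre, so other liver cells kept it, and for Gps2 the floxed mice of the same breedings without Cre served as WT. The Ppara KO lacked PPARα in the whole body. RNA-seq compared 4 Gps2 LKO with 4 WT livers. H3K27ac (a mark of active promoters and enhancers) and H3K4me3 (a mark of active promoters) were mapped in 2 Gps2 LKO and 2 WT samples each, and H3K27ac also in 3 LKO and 3 WT samples of the Ncor line and of the Smrt line. GPS2 was mapped in the Ncor line and in Ppara KO mice, NCOR in the Gps2 line and in Ppara KO mice, and PPARα in the Gps2 and Ncor lines, each with 3 knockout and 3 WT libraries, while PPARα in Ppara KO mice had 2 and 2. The 3 WT libraries of PPARα in the Gps2 line were counted as 1 sample, as described with that comparison. GPS2 and RNA polymerase II (Pol II) in the Gps2 line had 1 library per group. By the study's methods 2 to 4 immunoprecipitations were pooled per ChIP-seq sample, and since the labels do not tie samples to separate animals, p-values measure the spread between these samples, which may be in part technical.

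RNA-seq libraries held 13.2 to 20.1 M assigned reads and the ChIP-seq libraries 7.90 to 46.1 M tags. Gps2 itself had 16.4, 15.8, 16.7 and 15.1 counts per 1 M assigned reads (CPM) in WT and 12.7, 9.86, 9.16 and 12.9 in Gps2 LKO livers, a log2 fold change of -0.53 ± 0.11 (SE; edgeR's quasi-likelihood test, Benjamini-Hochberg adjusted p = 0.0021). Hepatocyte markers dominated every library, with a summed level of 115953 to 119886 CPM in WT and 151558 to 177224 CPM in LKO livers for 8 markers. Markers of other liver cells also differed: 7 stellate cell markers summed to 182–190 CPM in WT and 339–350 CPM in LKO livers, 7 Kupffer cell markers to 136–140 and 179–208, 7 endothelial markers to 165–170 and 191–201, and 6 cholangiocyte markers to 65.0–69.2 and 91.5–112 CPM. Sums of lymphocyte (0.653–1.66 and 2.39–2.69 CPM) and adipocyte markers (5.88–7.56 and 10.7–16.4) did not overlap between groups, and those of acinar (0.620–1.51 and 0.433–1.19) and blood cell markers (253–286 and 219–299) did. Of the markers tested, 3 of 8 hepatocyte genes were called higher and 2 lower, and 7 of 7 stellate, 6 of 7 Kupffer, 3 of 7 endothelial and 3 of 5 cholangiocyte genes were called higher, where 23.4% of all genes tested were called higher and 21.4% lower. Of 5 blood cell markers 4 were called higher and 1 lower. The 1 adipocyte marker tested was called higher, and the 1 lymphocyte and 1 acinar marker tested were not called. The log2 fold change of a gene was lower the longer its exons (Spearman's rho across genes -0.40). For the 4 genes and for counts over lists, a fit with this length trend removed is given where calls differed. In that fit 4 hepatocyte, 5 Kupffer, 6 endothelial and 1 blood cell marker were called higher, and the other marker counts were unchanged. Of all genes tested, 21.7% were then called higher and 22.1% lower.

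Fgf21 RNA was the most changed of the 4, rising in Gps2 LKO livers, Fgfr1 RNA rose by less, and Fgfr4 and Klb RNA did not pass the test. The Fgf21 level was 0.744, 0.475, 0.873 and 1.02 CPM in the WT libraries (12, 8, 15 and 16 reads). It was 17.1, 12.6, 17.3 and 15.1 CPM in the LKO libraries (229, 247, 279 and 184 reads). Every LKO library lay far above every WT library. The log2 fold change was 4.30 ± 0.19 (SE, n = 4 per group; edgeR's quasi-likelihood test, adjusted p = 7.44e-10), rank 19 of 12220 genes ordered from the most raised, and 23.4% of the genes tested were called higher and 21.4% lower (12.8% and 37.9% when libraries were scaled to their total counts). Per kilobase of exon the WT level of 0.821 ± 0.244 CPM (SD) placed Fgf21 at rank 10298 of 12220, and the LKO level of 16.4 ± 2.32 CPM at rank 2847.

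Klb, the coreceptor, had 27.8, 28.6, 29.8 and 29.2 CPM in WT and 27.5, 37.4, 27.7 and 25.3 CPM in LKO livers. The groups overlapped, and LKO library 2 was higher than all others. The log2 fold change was 0.04 ± 0.11 (adjusted p = 0.78, edgeR), -0.12 without LKO library 2 (adjusted p = 0.13) and -0.14 when libraries were scaled to their total counts, a scaling that moved the median of all genes from 0.03 to -0.15. Fgfr4 had 40.1, 41.0, 37.1 and 37.0 CPM in WT and 41.7, 45.7, 46.1 and 41.1 CPM in LKO livers. The lowest LKO library was just above the highest WT library. Its log2 fold change of 0.17 ± 0.07 missed the threshold (adjusted p = 0.067, edgeR), passed it with the length trend removed (0.18, adjusted p = 0.022) and was -0.01 under total-count scaling. Fgfr1, which in liver is expressed also outside hepatocytes, had 11.0, 9.38, 9.08 and 8.85 CPM in WT and 14.7, 15.9, 16.2 and 14.0 CPM in LKO livers. The groups were well separated, with a log2 fold change of 0.67 ± 0.10 (adjusted p = 0.000115, edgeR) that stayed called in all alternatives tried. The marker sums of stellate, Kupffer and endothelial cells given above were also higher in the same LKO libraries, and their part in the Fgfr1 value was not tested. In these bulk livers, a change in the number of cells of a type and a change in RNA per cell cannot be told apart.

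Per kilobase of exon the order in WT livers was Fgfr4 (12.3 ± 0.646 CPM), Klb (8.39 ± 0.248), Fgfr1 (1.90 ± 0.191) and Fgf21 (0.821 ± 0.244), each pair of neighbours separated by more than the sum of their SDs. In LKO livers Fgf21 (16.4 ± 2.32 CPM per kb) and Fgfr4 (13.9 ± 0.836) lay above Klb (8.57 ± 1.56) and Fgfr1 (3.03 ± 0.207), and the SD ranges of Fgf21 and Fgfr4 overlapped.

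**Figure D1:**
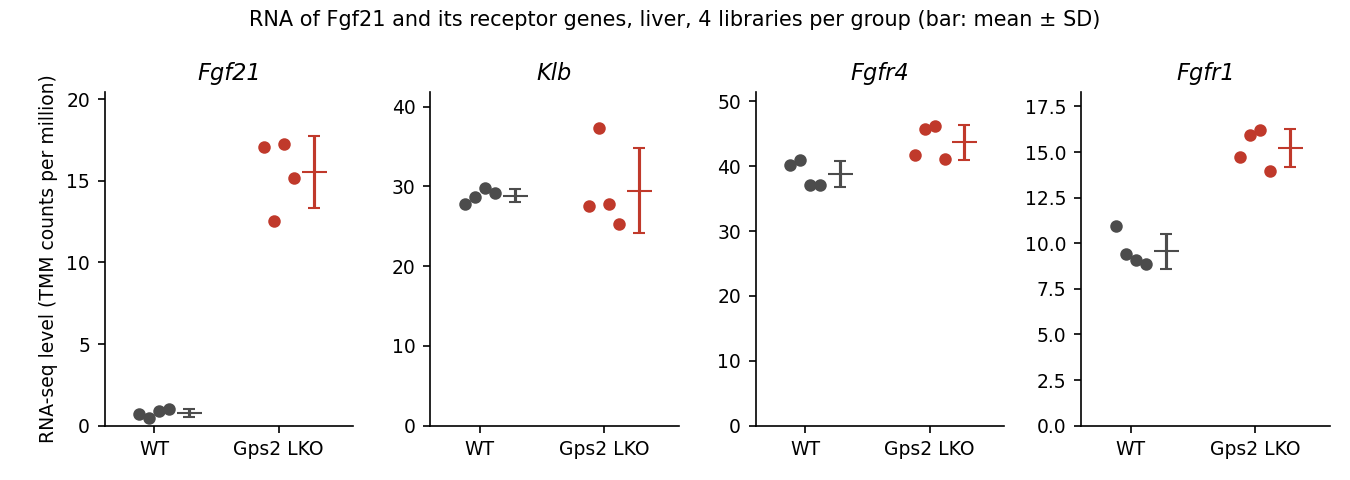
RNA level in TMM-scaled CPM for each of the 4 genes, 1 point per liver library, 4 WT (grey) and 4 Gps2 LKO (red), with the mean and SD as a bar beside them; each axis starts at 0 and has its own scale. Fgf21 went from 0.475–1.02 to 12.6–17.3 CPM, Fgfr1 was separated between groups, Fgfr4 nearly touched and Klb overlapped with 1 high LKO library.

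The genes whose log2 levels followed Fgf21 most closely over the 8 libraries were Cyp2a4, Atp1b1, Mthfd1l, Ak4 and Acsl5 (Pearson's r 0.995 for each), all called higher in LKO livers. Within groups, their r with Fgf21 was between 0.621 (Acsl5) and 0.850 (Mthfd1l). Fgfr1 was followed most closely by Hcar2 (r = 0.993), Slc13a5 (0.992) and the basement membrane collagen Col4a2 (0.991), Fgfr4 by Mesdc1 (0.973), Dll4 (0.971) and Sema4a (0.971), and Klb by Siglec1 (0.950), Raph1 (0.941) and Impact (0.928). These are descriptions over 8 libraries that share their groups and scaling.

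Other genes of the FGF pathway moved in both directions, and their counts stand beside 23.4% of all genes called higher and 21.4% lower. Of 8 other ligands, 1 was expressed enough to be tested: Fgf1, a ligand of all FGF receptors, fell from a mean of 115 to 65.0 CPM (log2 fold change -0.82). Among 6 tested receptors and coreceptors 3 rose and none fell: Fgfrl1, a decoy receptor (0.31), Fgfr2 (0.23) and the heparan sulfate proteoglycan Sdc1 (0.21), with a list median of 0.22 where the median of all genes was 0.03. Of 20 adaptors and kinases 4 rose and 10 fell, with a median of -0.17. The largest changes were in the phospholipase Plcg1 (-0.73), the receptor-docking adaptors Frs3 (0.60) and Frs2 (-0.59), and the Ras exchange factor Sos1 (-0.58). With the length trend removed, 3 rose and 7 fell and the list median was -0.02. Of 12 feedback inhibitors and targets 4 rose and 3 fell (median 0.01; -0.02 with the length trend removed), among them the inhibitor Spry2 (1.42), the ubiquitin ligase Cbl (-1.39), the inhibitor Spred2 (-0.89) and the transcription factor Etv5 (-0.62). Of 18 known regulators of Fgf21 transcription 6 rose and 4 fell (median -0.01; 7 and 2 with the length trend removed, median 0.03), including the nuclear receptor Nr4a1 (2.35), the stress factor Atf4 (0.64), the coactivator Ppargc1a (0.53) and the repressor Nr1d1 (-0.52). Of 6 tested genes of FGF21 turnover and liver responses 2 rose and 3 fell (median -0.05; 2 and 2 with the length trend removed, median -0.05): Socs2, an inhibitor of growth hormone signalling (1.19), the bile acid enzymes Cyp8b1 (-1.02) and Cyp7a1 (-0.46), and the repressor Nr0b2 (0.48). Of 3 tested genes near Fgf21, Bcat2 (0.69) and Rasip1 (0.43) rose. All calls are from edgeR's quasi-likelihood test with Benjamini-Hochberg adjustment over all genes tested.

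The Fgf21 promoter and the PPARα row downstream of the gene are printed because the promoter carries the Pol II, NCOR and GPS2 rows described below and the downstream row had the smallest adjusted p of the Fgf21 rows in the PPARα comparison of Gps2 LKO with WT. Capitals mark matches, on either strand, to 3 short motifs searched by script: DR1 (AGGTCANAGGTCA with at most 2 mismatches in its 12 defined bases), the ATF4-type element TGATGNAA, and the E-box CACGTG. The promoter is the 250 bases before the start site from RefSeq (GRCm38.p6, chr7:45615441-45615740 with the 50 bases after the start site, which are not printed; minus strand). The downstream window is the central 200 bases of the row 5751 bp past the start site (NCBI37/mm9, chr7:52865010-52865209, plus strand), which the authors' annotation calls intergenic.
Fgf21 promoter: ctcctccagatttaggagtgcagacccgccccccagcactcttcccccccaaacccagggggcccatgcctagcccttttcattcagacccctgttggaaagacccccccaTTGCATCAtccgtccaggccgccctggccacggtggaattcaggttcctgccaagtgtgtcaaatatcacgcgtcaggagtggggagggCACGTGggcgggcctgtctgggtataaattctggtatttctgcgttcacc
Fgf21 downstream row: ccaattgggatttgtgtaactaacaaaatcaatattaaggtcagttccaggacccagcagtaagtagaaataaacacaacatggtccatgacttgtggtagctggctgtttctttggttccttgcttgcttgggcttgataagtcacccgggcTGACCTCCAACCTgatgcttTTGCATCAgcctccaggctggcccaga

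The Fgf21 promoter held TTGCATCA, a TGATGNAA match on the strand opposite to the one printed, and CACGTG, and no DR1 match. Of 32851 RefSeq promoters of 300 bases, 3.97% held TGATGNAA, 7.15% CACGTG and 3.86% DR1. The downstream window held a DR1 match with 2 mismatches and a second TTGCATCA. Of the Fgf21 rows not printed, that at +6277 also held a DR1 match with 2 mismatches, that at -998 a TGATGNAA match and that at +17874 CACGTG. Over the 36 PPARα rows of the 4 genes in the Gps2 line, windows of 200 bases held DR1 in 6, TGATGNAA in 5 and CACGTG in 5, where 13.3%, 4.11% and 4.15% of all 102417 such windows did. Klb, Fgfr4 and Fgfr1 windows held these DR1 matches, printed as they read on the plus strand of mm9.
Klb row at +2297: AGGTCAGAGGGCA
Fgfr4 row at +10977: AGGTCACAGGTCA
Fgfr1 row at +10309: TGTCCTCTGACCT
Fgfr1 row at -35240: TGACCTCTCTCCT

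The Fgfr4 match had no mismatch, those of Klb and of Fgfr1 at +10309 had 1, and the other Fgfr1 match had 2. The Klb and Fgfr4 promoters in RefSeq held none of the 3 motifs. A match is a description of the sequence and no evidence of binding.

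In the Gps2 line both histone marks were higher at Fgf21 in LKO livers and close to WT at the receptor genes. The wide row over Fgf21, centred 2281 bp past the start site (mm9, chr7:52864610-52872549), had 483 and 764 H3K27ac tags in WT and 1164 and 1288 in LKO samples, or 227 ± 47.4 and 438 ± 0.324 tags per 10000000 (SD, n = 2). Both LKO samples were above both WT samples. The log2 fold change was 0.95 ± 0.13 (edgeR's quasi-likelihood test, adjusted p = 0.023), where 1.21% of all rows were called higher and 0.212% lower. It was 0.75 without WT 1 and 1.18 without WT 2, in fits that assume the lone WT sample to vary like the others. The call was lost in both fits, but they called almost no row at all and so do not decide it. The 4 Fgf21 rows summed had a log2 fold change of 0.87 (adjusted p = 0.024; 1.45% of all genes were called higher in such sums and 0.179% lower), which under TMM scaling was 0.82 (adjusted p = 0.059). For this sum the same kind of fit gave 0.68 without WT 1 and 1.08 without WT 2, again without a call.

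H3K4me3 at the same Fgf21 row had 104 and 142 tags in WT and 422 and 436 in LKO samples, with no overlap. The log2 fold change was 1.56 ± 0.19 (adjusted p = 0.00117, edgeR), where 0.798% of rows were called higher and 0.118% lower, and it stayed called in all alternatives tried, leaving out each sample included. For the 4 Fgf21 rows summed it was 1.42 (adjusted p = 0.000538; 0.795% of genes called higher, 0.103% lower), 1.21 without WT 1 and 1.65 without WT 2. The call of this sum was lost without WT 1 or WT 2, in fits that keep 1 WT sample and so do not decide it. A distal Fgf21 row at +17370 had 86 and 132 H3K27ac tags in WT and 180 and 184 in LKO samples (0.71 ± 0.18, adjusted p = 0.11), without overlap but past no threshold. The start-site row of the neighbour Rasip1, whose RNA also rose, had 530 and 619 H3K27ac tags in WT and 555 and 659 in LKO samples (0.03).

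Of 15 tested H3K27ac rows of the 4 genes 1 was higher and none lower, and of 8 H3K4me3 rows 1 was higher and none lower, in both cases the Fgf21 row. Klb at +1432 had 1129 and 1238 H3K27ac tags in WT and 1207 and 1295 in LKO samples, and 1115 and 1045 against 1398 and 1246 H3K4me3 tags. Fgfr4 at +772 had 1053 and 1160 against 1294 and 1038 H3K27ac tags, and 656 and 502 against 707 and 633 H3K4me3 tags. Fgfr1 at +1127 had 211 and 190 against 203 and 187 H3K27ac tags, and 801 and 568 against 809 and 847 H3K4me3 tags. The log2 fold changes of the summed tags of the receptor genes lay between -0.04 and 0.06 in both marks, and in H3K27ac all 3 were slightly negative under TMM scaling. A distal Fgfr1 row at -34825 had 60 and 61 H3K27ac tags in WT and 121 and 110 in LKO samples (0.89 ± 0.20, adjusted p = 0.087), above WT in both samples but past no threshold.

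Pol II, with 1 library per group and so no replicate check, showed the same contrast between ligand and receptors. At the Fgf21 start site (row at +27) 82 tags were counted in WT and 198 in LKO, a depth-scaled ratio of 2.37 (95% interval for counting error only, 1.82–3.10). All Fgf21 rows summed gave 93 and 216 tags and a ratio of 2.28 (1.78–2.94), where 7.72% of all rows were at least 2-fold higher, 5.94% at least 2-fold lower, and the median ratio over rows was 1.06. The summed ratio was 1.10 for Klb (173 and 195 tags, interval 0.896–1.36) and 0.801 for Fgfr1 (153 and 125 tags, 0.627–1.02). For Fgfr4, with 159 and 194 tags, its interval was 0.965–1.48. For each receptor gene the interval of the summed ratio held 1, whereas that of Fgf21 did not. Among single receptor rows, only the interval of Fgfr4 at +16180 did not hold 1 (3 and 14 tags, 1.28–24.8). The intervals of the distal Fgf21 rows at +17752 and +18365 held 1.

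**Figure D2:**
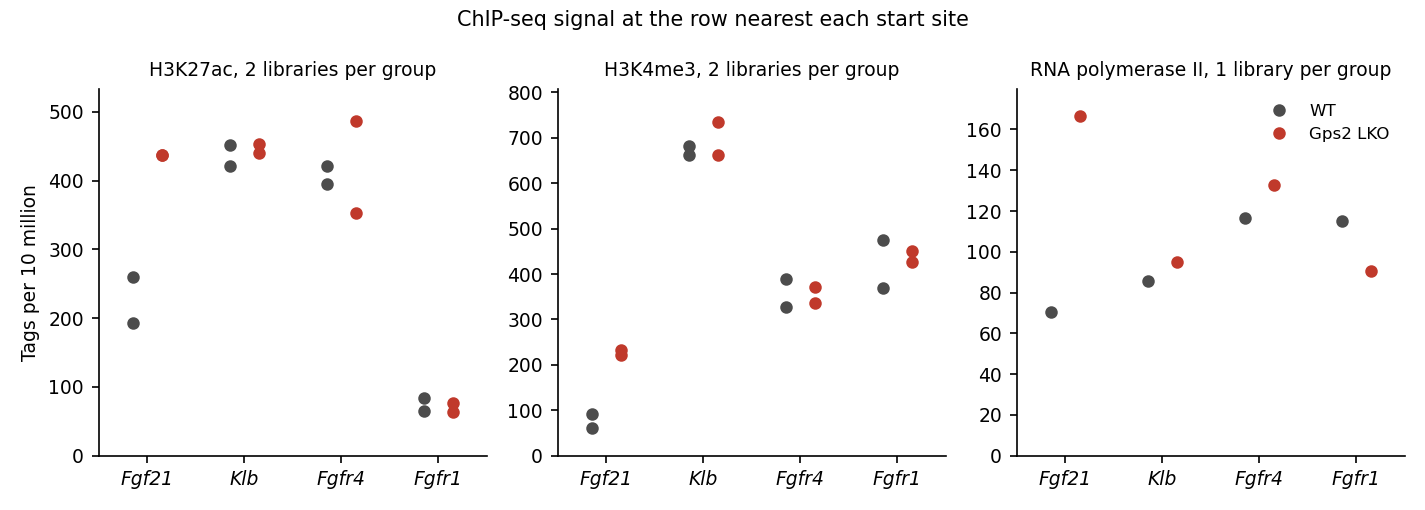
Tags per 10000000 in the row nearest the start site of each gene, 1 point per library, for H3K27ac and H3K4me3 (2 WT in grey, 2 Gps2 LKO in red) and Pol II (1 and 1); axes start at 0. Fgf21 was higher in LKO libraries in all 3 panels, and Klb, Fgfr4 and Fgfr1 had WT and LKO points near each other.

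GPS2 tags were present at all 4 genes in WT liver and nearly absent in the Gps2 LKO library. Fgf21 rows held 75 tags in WT and 3 in LKO (ratio 0.0419, interval 0.00845–0.127), among them 12 and 0 at -74, 15 and 1 at +4648 and 24 and 0 at +5764. Klb had 202 and 6 tags, with 50 and 49 WT tags in the rows at +5860 and +8748, Fgfr4 had 31 and 1, and Fgfr1 69 and 6. The loss was general, as 99.6% of all rows were at least 2-fold lower, 0.102% at least 2-fold higher, and the median ratio was 0.0361, so the loss was not particular to the 4 genes.

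GPS2 signal was also lower in general in Ncor LKO and in Ppara KO libraries, and the 4 genes were close to that general shift. In the Ncor line, rows held 8.23% of the tags of WT 1 and 7.82% of those of WT 2. They held 3.07% of the tags of WT 3, within the 2.45–3.15% of the LKO libraries, so the general shift did not separate WT 3 from them. In the Ncor line the median log2 fold change over all rows was -1.12, and 0 of 16 rows of the 4 genes passed the test (0.0338% of all rows were called lower). The Fgf21 promoter row at -37 had 15, 11 and 13 tags in WT and 5, 3 and 2 in LKO libraries, without overlap, and a log2 fold change of -2.15 (adjusted p = 0.078, edgeR). Without WT 3 it was -2.25 (adjusted p = 0.00162), in a fit that called 59.1% of all rows lower. With a replicate block in edgeR it was -2.18 (adjusted p = 0.023), in a fit that called 10541 of 56278 rows. Fgfr1 at -5189 had 27, 14 and 19 against 7, 4 and 5 tags (-2.09, adjusted p = 0.077). Fgf21 rows summed gave 88, 48 and 47 against 38, 21 and 18 tags, a log2 fold change of -1.48 (adjusted p = 0.063; 0.187% of all genes were called lower in such sums). It was called with DESeq2 (adjusted p = 0.023), with a replicate block (adjusted p = 0.033) and without WT 3 (-1.71, adjusted p = 1.63e-07), settings under which 29.9%, 19.1% and 74.5% of all genes were called lower, and it was -0.44 under TMM scaling. In Ppara KO mice the median over rows was -0.93, and 0 of 11 rows of the 4 genes passed (0.273% called lower). Fgf21 rows summed had 23, 19 and 39 tags in WT and 14, 19 and 5 in KO libraries, which overlapped (-1.04, adjusted p = 0.16; 0.439% of genes called lower).

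NCOR in Gps2 LKO livers did not differ detectably at any of the 4 genes. None of 32 rows passed (0.0124% of all rows were called higher and 0.00495% lower). The Fgf21 promoter row at -96 had 17, 16 and 15 tags in WT and 32, 32 and 10 in LKO libraries, of which LKO 3 was below and the others above WT. Fgf21 summed tags were 309, 236 and 167 in WT and 331, 309 and 153 in LKO libraries (log2 fold change 0.12 ± 0.43), and no sum of the 4 genes was called where 0.0236% of genes were called higher and 0.00589% lower. A Klb row at +15065 had 12, 7 and 9 tags in WT and 22, 45 and 24 in LKO libraries without overlap (1.66, adjusted p = 0.62), and it was called under TMM scaling only (adjusted p = 0.0123).

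In Ppara KO livers 1 of 34 NCOR rows of the 4 genes was called lower, a share near the background, as 2.51% of all rows were called lower (0.136% higher). It was the Fgf21 promoter row at -108 (mm9, chr7:52870903-52871033), with 8, 8 and 15 tags in WT and 4, 2 and 1 in KO libraries. The groups did not overlap, but counts were low throughout. The log2 fold change was -2.27 ± 0.65 (adjusted p = 0.026, edgeR), against a median of -0.32 over all rows. The call was lost under TMM scaling (-1.98, adjusted p = 0.098) and without WT 1 (adjusted p = 0.051), WT 3 (0.32), KO 2 (0.083) or KO 3 (0.17). The next Fgf21 row upstream, at -1016, had 13, 6 and 13 tags in WT and 3, 3 and 5 in KO libraries (-1.70, adjusted p = 0.086). The rows with most tags, downstream at +4626 and +5777, had 78, 56 and 92 against 70, 96 and 76 tags (-0.10) and 37, 54 and 57 against 51, 56 and 50 tags (-0.12), with overlap in both.

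As a share of all NCOR tags in Fgf21 rows, a measure chosen after these values were seen, the rows within 1100 bp of the start site held 7.12%, 5.34% and 8.07% in WT and 2.57%, 1.48% and 2.41% in Ppara KO libraries. All KO libraries were below all WT libraries, which restates the low counts of the rows at -108 and -1016. An exact permutation test over libraries gave p = 0.1. That is the smallest p these numbers of libraries allow, so the test could not pass the threshold used and does not decide the question. In the Gps2 line WT libraries held 12.6%, 10.2% and 13.2% there and LKO libraries 14.2%, 14.6% and 11.8%, with overlap (p = 0.3, same exact test). Summed Fgf21 tags of NCOR had a log2 fold change of -0.27 in Ppara KO mice, 0.03 under TMM scaling, and was not called where 5.83% of genes were called lower and 0.185% higher. At the receptor genes no NCOR row was called in Ppara KO mice: the Klb row at +8729 had 166, 139 and 185 tags in WT and 140, 181 and 133 in KO libraries, and the Fgfr1 row at -5252 had 91, 156 and 46 against 120, 187 and 85.

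PPARα tags were higher at Fgf21 and Fgfr1 in Gps2 LKO than in WT livers when libraries were scaled to their total tags, and so were PPARα tags in general. The 3 WT libraries differed from each other by little more than sampling noise (ratio of observed to expected variance 1.06, against 1.73 for the LKO libraries), so they were summed and counted as 1 sample. The fit thus set 1 WT sample against 3 LKO libraries, and its p-values take their spread from the LKO libraries alone and assume that the WT sample varies like them. Rows held 19.2–21.9% of the WT tags and 28.9–32.1% of the LKO tags, and the median log2 fold change over all rows was 0.62. Of 36 rows of the 4 genes 14 were called higher and none lower, where 21.5% of all rows were called higher and 0.147% lower. These were 7 of 10 Fgf21 rows, 2 of 9 Klb rows, 0 of 7 Fgfr4 rows and 5 of 10 Fgfr1 rows. Under TMM scaling, which sets the general shift near 0, none of the 36 rows was called and 0.539% of all rows were called higher. The summed values then stayed above 0 for Fgf21 (0.24) and Fgfr1 (0.32) without passing the test, so a rise relative to other PPARα rows was not shown, and a lost call does not show its absence.

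The Fgf21 row at +5751, printed above, had 28, 34 and 30 tags in WT and 53, 95 and 133 in LKO libraries (log2 fold change 1.19 ± 0.26, adjusted p = 0.00036, edgeR). Each LKO library was above each WT library also per 10000000 tags. The promoter row at -80 had 25, 27 and 22 against 47, 57 and 73 tags (0.87, adjusted p = 0.018; not called with DESeq2). The intron row at +805 had 6, 15 and 7 against 22, 33 and 49 tags (1.47, adjusted p = 0.00157). The row at +4579, the largest in WT, had 41, 61 and 48 against 52, 65 and 109 tags (0.17, adjusted p = 0.60). Of the other called Fgf21 rows, those at +11570, +17669, +17874 and +18276 were each lost without some single libraries (highest adjusted p 0.12, 0.096, 0.13 and 0.25). Fgf21 rows summed had a log2 fold change of 0.80 (adjusted p = 3e-05; 0.24 and adjusted p = 0.38 under TMM scaling), and 58.1% of all genes were called higher in such sums and 0.198% lower.

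For Fgfr1, the distal row at -34883 had 21, 27 and 16 PPARα tags in WT and 48, 63 and 86 in LKO libraries (1.22 ± 0.29, adjusted p = 0.000915), and it lies inside the row at -34825 where H3K27ac was higher without passing the test. Its row at -97106 had 0 tags in each WT library against 8, 6 and 9 tags. The Fgfr1 call at +10309 (adjusted p = 0.049), the row with a DR1 match, was kept without WT 2 (adjusted p = 0.011) and lost without any of the other 5 libraries (adjusted p 0.056 to 0.20). Fgfr1 rows summed gave 0.88 (adjusted p = 3.67e-05), and 0.32 under TMM scaling. For Klb, the largest row at +8730 had 66, 100 and 77 tags in WT and 127, 139 and 174 in LKO libraries (0.49, adjusted p = 0.13). Klb rows summed gave 0.48 (adjusted p = 0.00673; -0.09 under TMM scaling; 0.42 and adjusted p = 0.10 without LKO 2), which is below the median over rows, and Fgfr4 rows gave 0.29 (adjusted p = 0.18; -0.27 under TMM scaling).

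**Figure D3:**
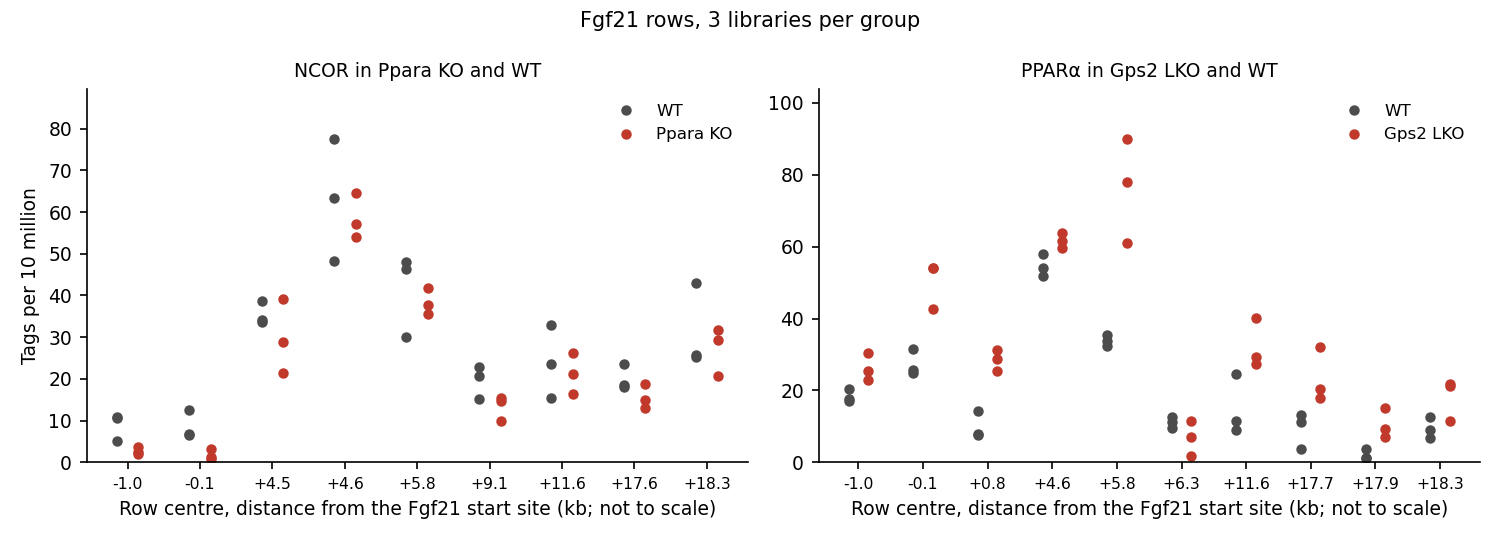
Tags per 10000000 in each Fgf21 row against its distance from the start site in kb (rows in order, not to scale), 3 WT libraries in grey and 3 knockout libraries in red, for NCOR in Ppara KO mice (left) and PPARα in Gps2 LKO mice (right). NCOR points of KO libraries were below WT in the rows at -1016 and -108 and mixed at +4626 and +5777, and PPARα points of LKO libraries were above WT at -80, +805 and +5751.

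PPARα in Ncor LKO livers did not differ detectably at the 4 genes, with 0 of 27 rows called (0.151% of all rows higher, 0.0453% lower), nor any of their sums (0.0806% of all genes higher, 0.023% lower). Rows held 8.96% of the tags of WT 3, against 19.3% and 18.6% in WT 1 and WT 2 and 14.7–21.1% in LKO libraries. The log2 fold change of the Fgf21 sum was 0.15 ± 0.46, and -0.08 without WT 3. The Fgf21 promoter row at -89 had 27, 25 and 28 tags in WT and 18, 26 and 24 in LKO libraries, which overlapped. The row at +5765 had 77, 92 and 48 against 90, 96 and 92 tags (0.41 ± 0.48), where the LKO libraries were above WT per 10000000 tags but past no threshold.

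In Ppara KO mice the PPARα antibody gave few tags in rows, 2.14–2.44% of all tags in WT and 0.581–0.652% in KO libraries, and the median log2 fold change over all rows was -1.68. Of 19 rows of the 4 genes 3 were called lower, all at Klb, where 27.6% of all rows were lower and 0.0174% higher. The Klb row at +8737 had 23 and 24 tags in WT and 3 and 4 in KO libraries (-2.76, adjusted p = 0.00049, edgeR). The Klb row at +2526 had 13 and 13 against 4 and 1, and that at +2286 had 10 and 4 against 1 and 1. These calls were lost under TMM scaling, which sets the general shift near 0, and with a replicate block, a fit that called 0 rows. Each was also lost without WT 1 or without WT 2 (log2 fold change -2.84 and -2.67 at +8737). Those fits kept 1 WT sample and called no row at all, so they do not decide these calls. Fgf21 rows summed had 25 and 29 tags in WT and 13 and 11 in KO libraries, a log2 fold change of -1.22 (adjusted p = 0.009), where 56.8% of all genes were called lower and 0.0592% higher. The call was lost with DESeq2 (-1.23, adjusted p = 0.11), under TMM scaling (0.48) and without WT 2 (-1.05), a fit with 1 WT sample. Both KO libraries were below both WT libraries, though less so than the median row.

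**Figure D4:**
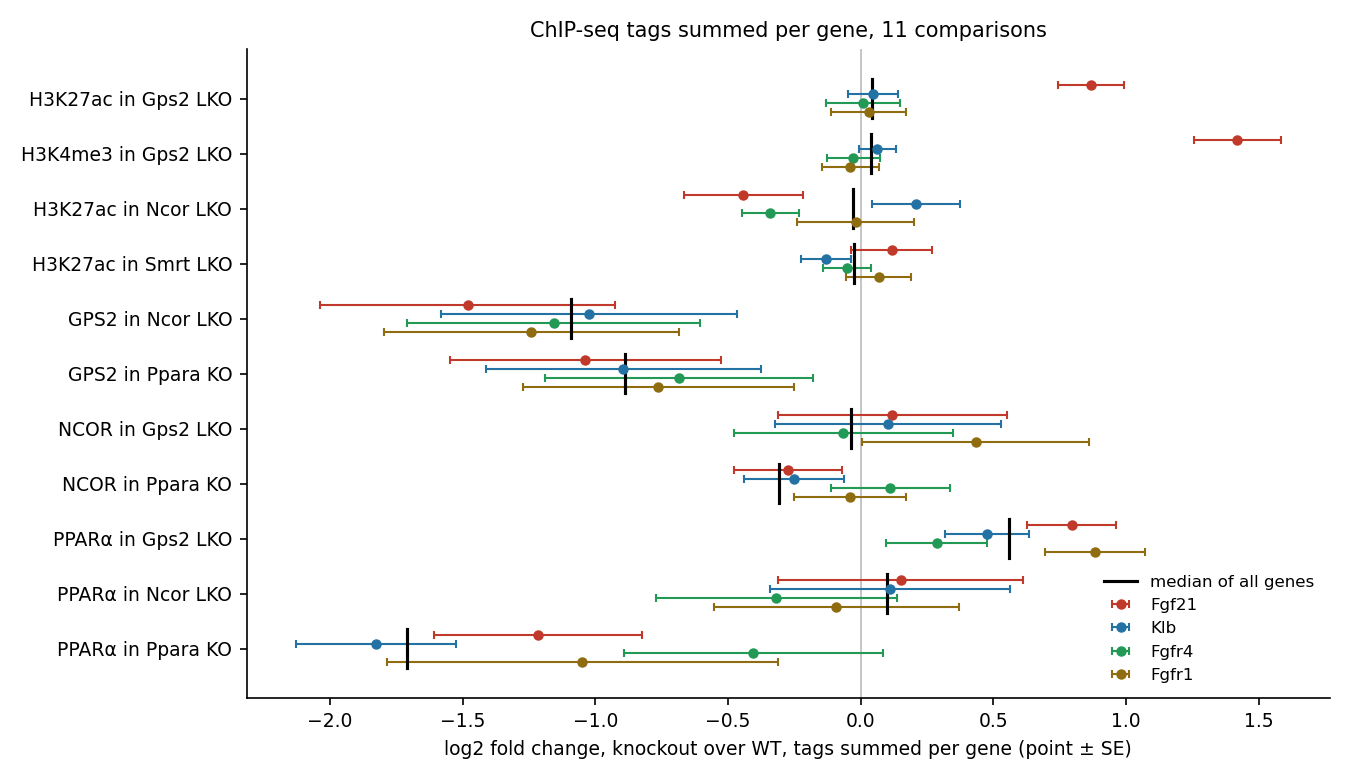
Log2 fold change of knockout over WT, with its SE as a bar, of the tags summed over all rows of each gene (colours) in 11 ChIP-seq comparisons, with the median over all genes as a black mark. Fgf21 stood far from the median in H3K27ac (0.87) and H3K4me3 (1.42) of Gps2 LKO livers, whereas Klb, Fgfr4 and Fgfr1 lay between -0.04 and 0.06 in those marks.

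Loss of NCOR or SMRT in hepatocytes left H3K27ac at the 4 genes without a call. In the Ncor line 0 of 19 rows passed (2.32% of all rows were called higher and 0.801% lower). The Fgf21 promoter row at -424 had 176, 298 and 782 tags in WT and 244, 216 and 173 in LKO samples, so that WT 3 was far above all others (log2 fold change -1.02, adjusted p = 0.23). Fgf21 rows summed had 662, 1021 and 1658 against 916, 831 and 798 tags (-0.44, adjusted p = 0.38), and no sum was called where 2% of genes were called higher and 0.997% lower. Fgfr4 at +787 had 1601, 1660 and 1704 tags in WT and 1513, 1329 and 1245 in LKO samples, without overlap (-0.36 ± 0.11, adjusted p = 0.13). Klb and Fgfr1 rows summed gave 0.21 and -0.02. In the Smrt line 0 of 19 rows passed, as did 0 of 68800 rows in all, of which 4079 had an unadjusted p under 0.05 in edgeR and 68 were called by DESeq2. Fgf21 rows summed had 765, 1234 and 691 tags in WT and 926, 959 and 969 in LKO samples (0.12). The difference between the Ncor and the Smrt effect at Fgf21, tested as an interaction in edgeR, was -0.56 ± 0.31 (adjusted p = 0.55), and it was not called for any of the 4 genes. Over all genes, the Ncor LKO effect was called above the Smrt LKO effect in 0.457% and below it in 0.17% (0.33% and 0.0959% of rows).

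The WT samples of these lines differed from each other at the receptor genes, in a comparison added after the data were seen. Summed H3K27ac tags of Klb were 478 ± 41.5 per 10000000 in WT samples of the Ncor line and 917 ± 64.8 in those of the Smrt line (SD, n = 3; log2 difference -0.94, edgeR's adjusted p = 0.000407). Those of Fgfr1 were 391 ± 87.6 and 204 ± 22.3 (0.94, adjusted p = 0.00587), with the row at -4502 at 101 and 21.3 and the row at +10173 at 12.3 and 1.65 tags per 10000000. Those of Fgfr4 were 448 ± 28.6 and 549 ± 43.4 (-0.29, adjusted p = 0.030; -0.17 and adjusted p = 0.15 under TMM scaling), and those of Fgf21 were 264 ± 99.1 and 241 ± 54.9 (0.13, adjusted p = 0.74). Of all genes, 8.33% were called higher and 23.1% lower in the Ncor line, and of rows 9.53% and 13.1%. Line and any difference in preparation or sequencing between the lines cannot be told apart.

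**Figure D5:**
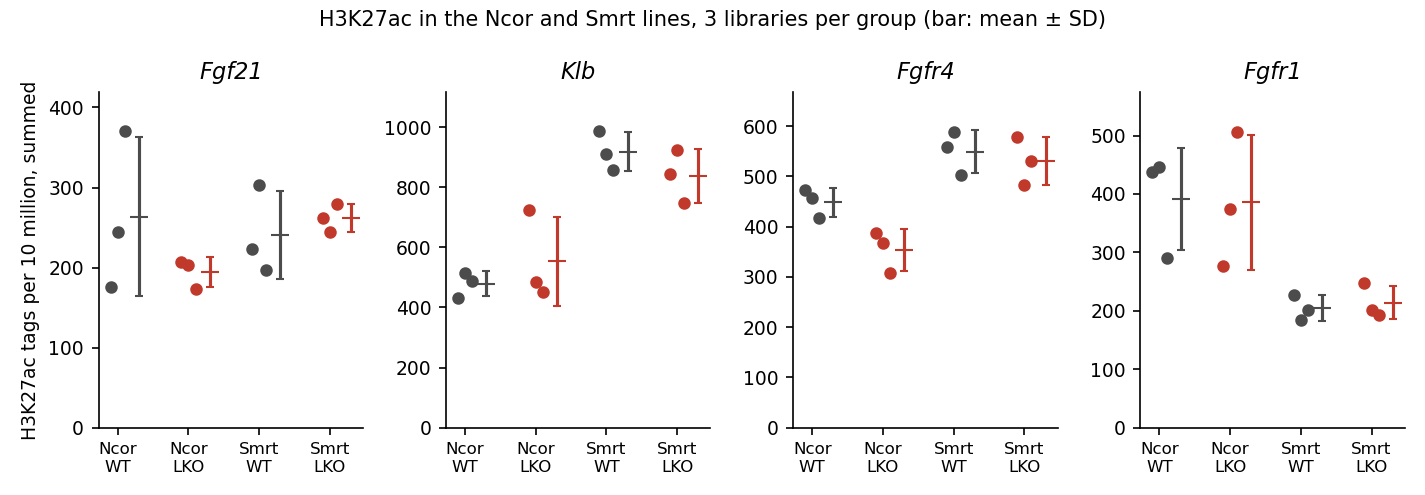
Summed H3K27ac tags per 10000000 for each of the 4 genes in WT (grey) and LKO (red) samples of the Ncor and Smrt lines, 1 point per sample (3 per group) with mean and SD as a bar; axes start at 0. Klb was lower and Fgfr1 higher in all 6 Ncor-line samples than in all 6 Smrt-line samples, and WT and LKO points of a line were mixed except for Fgfr4 in the Ncor line.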

How the data were processed

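RNA-seq and ChIP-seq tables of mouse liver were used as deposited. Per the labels and the study's methods, the authors aligned RNA reads with HISAT2 and deposited counts of reads per gene; the submitters' processing notes name featureCounts and HOMER, without versions, and whether strand was used is not given in the sources used here. For ChIP-seq the authors aligned with Bowtie2 to mm9, called peaks with HOMER and deposited raw tag counts per merged peak row. The authors' peak lists carry a score that is 1 in every row, and their positions alone were used. The RNA-seq table also holds the authors' own comparison columns, which were not used. RNA-seq rows carry GRCm38 coordinates and ChIP-seq rows mm9 coordinates, which were not mixed.

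Genes passing edgeR's filterByExpr were tested with edgeR 4.0.16 (quasi-likelihood, TMM scaling) in R 4.3.3, and ChIP-seq rows, or tags summed per gene, with the same test scaled to total tags, with Benjamini-Hochberg adjustment over all features and a threshold of 0.05. Histone rows of the Gps2 line were tested where they overlapped called peaks in at least 2 of 4 libraries. Single-library tables got exact counting intervals and no test. Alternatives were DESeq2 1.42.0, other scalings and filters, a replicate block and leaving out each library. Procedures were tested on simulated data. The 4 genes and all lists were chosen with earlier results of these data known. From each pathway list, at most 4 genes with the largest called changes were named.

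Same-numbered libraries did not deviate together in every pair (RNA-seq r 0.05, 0.10, 0.02 and 0.12), so numbers were not taken to pair samples.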

Additional observations from a re-analysis of the deposited data

How the results depend on the processing

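Fgf21 and Fgfr1 RNA and H3K4me3 in the wide Fgf21 row kept direction and call under every alternative run on them. Reversed values and changed calls among the other results stand here or beside the result, though not for every single row. TMM scaling turned signs or ended calls of summed tags in the GPS2 tables, NCOR in Ppara KO, and PPARα in Gps2 LKO and Ppara KO, and turned no summed sign in NCOR in Gps2 LKO or PPARα in Ncor LKO. Calls also ended under TMM for Klb in PPARα of Ppara KO (-0.13, adjusted p = 0.86) and Fgfr1 in PPARα of Gps2 LKO (0.32, adjusted p = 0.32), and for the latter over rows within 10000 bp of a start site (0.18, adjusted p = 0.52). With DESeq2 the calls of Fgf21, Klb (-1.02, adjusted p = 0.049) and Fgfr1 (-1.24, adjusted p = 0.040) were gained in GPS2 of Ncor LKO and that of Fgf21 was lost in PPARα of Ppara KO. Counts of at most 15 tags per library limited the NCOR promoter result in Ppara KO mice. The cause of these changes was not tested.

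Under TMM scaling log2 fold changes were Fgf21 0.82, Klb -0.0018, Fgfr4 -0.040 and Fgfr1 -0.015 (H3K27ac in Gps2 LKO), Fgfr1 0.019 (H3K27ac in Ncor LKO), Klb 0.041 (GPS2 in Ncor LKO), Fgfr4 0.16 and Fgfr1 0.090 (GPS2 in Ppara KO), Fgf21 0.029, Klb 0.043 and Fgfr1 0.23 (NCOR in Ppara KO), Fgf21 0.24, Klb -0.090 and Fgfr4 -0.27 (PPARα in Gps2 LKO) and Fgf21 0.48, Fgfr4 1.29 and Fgfr1 0.63 (PPARα in Ppara KO). The counts of called rows became 382 for H3K27ac in Gps2 LKO, 1257 for GPS2 in Ncor LKO, 42 for GPS2 in Ppara KO, 359 for NCOR in Gps2 LKO, 998 for PPARα in Gps2 LKO, 1496 for PPARα in Ncor LKO and 1448 for PPARα in Ppara KO. With DESeq2 log2 fold changes were Fgf21 -1.49 (GPS2 in Ncor LKO) and Fgf21 -1.23 (PPARα in Ppara KO). The counts of called rows became 3395 for H3K27ac in Ncor LKO, 68 for H3K27ac in Smrt LKO, 7963 for GPS2 in Ncor LKO, 8 for NCOR in Gps2 LKO, 1088 for NCOR in Ppara KO, 1746 for PPARα in Gps2 LKO, 28 for PPARα in Ncor LKO, 6969 for PPARα in Ppara KO and 1227 for H3K27ac, Ncor LKO effect minus Smrt LKO effect. With low-count features filtered out, counts of called rows were 1700 for GPS2 in Ncor LKO, 151 for GPS2 in Ppara KO, 8 for NCOR in Gps2 LKO, 75 for PPARα in Ncor LKO and 7357 for PPARα in Ppara KO. Over all histone rows counts of called rows were 1080 for H3K27ac in Gps2 LKO and 32 for H3K4me3 in Gps2 LKO. Under total-count scaling of RNA-seq log2 fold changes were Klb -0.14 and Fgfr4 -0.0089. With the length trend removed log2 fold changes were Fgfr4 0.18. Over rows within 10000 bp of a start site log2 fold changes were Fgfr1 0.18 (NCOR in Ppara KO). With a replicate block, as a pairing check, log2 fold changes were Fgfr4 -0.0059 (H3K27ac in Gps2 LKO), Fgf21 -1.49 (GPS2 in Ncor LKO) and Fgfr1 0.035 (PPARα in Ncor LKO). The counts of called rows became 2464 for H3K27ac in Gps2 LKO, 701 for H3K4me3 in Gps2 LKO, 1143 for H3K27ac in Ncor LKO, 10541 for GPS2 in Ncor LKO, 0 for GPS2 in Ppara KO, 288 for NCOR in Gps2 LKO, 1972 for NCOR in Ppara KO, 0 for PPARα in Ncor LKO, 0 for PPARα in Ppara KO and 69 for H3K27ac, Ncor LKO effect minus Smrt LKO effect. Taking the PPARα WT libraries of the Gps2 line as 3 samples gave 37826 called rows, and 37246 with a replicate block. Leaving out 1 library at a time, log2 fold changes are given as lowest to highest where a call or sign changed. In RNA-seq this concerned Klb, -0.12 to 0.10. Within H3K27ac in Gps2 LKO it was Fgf21 0.68 to 1.08, Klb -0.053 to 0.14, Fgfr4 -0.23 to 0.22 and Fgfr1 -0.16 to 0.24. For H3K4me3 in Gps2 LKO the range was Fgf21 1.21 to 1.65, Klb -0.014 to 0.14, Fgfr4 -0.16 to 0.12 and Fgfr1 -0.24 to 0.21. Within H3K27ac in Ncor LKO it was Klb -0.033 to 0.34 and Fgfr1 -0.26 to 0.17. For H3K27ac in Smrt LKO the range was Fgf21 -0.0084 to 0.32, Fgfr4 -0.12 to 0.013 and Fgfr1 -0.047 to 0.15. Within GPS2 in Ncor LKO it was Fgf21 -1.80 to -1.25, Klb -1.29 to -0.75, Fgfr4 -1.64 to -0.91 and Fgfr1 -1.55 to -1.03. For NCOR in Gps2 LKO the range was Fgf21 -0.032 to 0.36, Klb -0.21 to 0.32, Fgfr4 -0.48 to 0.16 and Fgfr1 -0.0032 to 0.61. Within NCOR in Ppara KO it was Fgfr4 -0.057 to 0.29 and Fgfr1 -0.27 to 0.21. For PPARα in Gps2 LKO the range was Klb 0.42 to 0.58. Within PPARα in Ncor LKO it was Fgf21 -0.080 to 0.34, Klb -0.15 to 0.36 and Fgfr1 -0.47 to 0.30. For PPARα in Ppara KO the range was Fgf21 -1.37 to -1.05, Fgfr4 -0.998 to 0.14 and Fgfr1 -3.04 to 0.16. Within H3K27ac, Ncor LKO effect minus Smrt LKO effect it was Fgfr1 -0.33 to 0.10. Among single rows it was Fgf21 +2281 0.75 to 1.18 (H3K27ac in Gps2 LKO), Fgf21 -424 -0.077 to 0.58 (H3K27ac in Smrt LKO), Fgf21 -37 -2.48 to -1.89 (GPS2 in Ncor LKO), Fgf21 -108 -2.95 to -1.90 (NCOR in Ppara KO), Klb +1052 0.49 to 1.16, Fgf21 +11570 0.74 to 1.64, Klb -102 0.67 to 1.01, Fgf21 +17874 1.81 to 2.99, Fgf21 +17669 0.88 to 1.55, Fgf21 +18276 0.80 to 1.27 and Fgfr1 +10309 1.01 to 2.56 (PPARα in Gps2 LKO) and Klb +8737 -3.02 to -2.52, Klb +2286 -3.17 to -1.98 and Klb +2526 -3.55 to -1.77 (PPARα in Ppara KO). Counts of called rows ran from 0 to 3006 for H3K27ac in Gps2 LKO, 110 to 236 for H3K4me3 in Gps2 LKO, 397 to 2560 for H3K27ac in Ncor LKO, 0 to 2 for H3K27ac in Smrt LKO, 0 to 33472 for GPS2 in Ncor LKO, 2 to 68 for GPS2 in Ppara KO, 0 to 78 for NCOR in Gps2 LKO, 1207 to 2855 for NCOR in Ppara KO, 10156 to 24801 for PPARα in Gps2 LKO, 5 to 835 for PPARα in Ncor LKO, 0 to 8839 for PPARα in Ppara KO and 51 to 372 for H3K27ac, Ncor LKO effect minus Smrt LKO effect.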
